A study of Mus musculus with 6 samples.

Results

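Between the perinatal stages and adulthood 125 of the 18193 genes on the arrays changed by 4-fold or more in the same direction in ovary and testis. These genes were found by comparing, within each organ, the adult array with the log2 mean of the fetal and neonatal arrays, and by keeping genes with a ratio of 4 or more the same way in both organs. Of them 110 were lower in both adult gonads, 0.605% of all genes, and 15 were higher in both, 0.0824% of all genes. The lower genes included imprinted growth genes of the embryo (Dlk1, Igf2, Mest, Peg3), growth factors and receptors (Ptn, Mdk, Agtr2), the fetal serum protein gene Afp, adhesion genes (Ncam1, Cd248), matrix genes (Emilin3, Postn, Eln, Col1a1, Mfap4) and patterning factors (Hoxa9, Meis1, Meis2, Sox11). The higher genes included angiotensinogen (Agt) and metallothionein 1 (Mt1).

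All animals were C57BL/6 mice, an inbred laboratory strain, and the labels name no transgene and no treatment. Ovaries and testes were sampled in the fetus at 15.5 days postcoitum, in the neonate at day 1 and in the adult at 10 weeks, with 1 array for each of the 6 groups, and the sources used here do not give the number of animals behind an array. The series was collected to look for genes of chromosome segregation in the first meiotic division, so adult maturation was not its stated question. Without replicate arrays no value has a replicate error, and a difference is described by its size. The 2 organ comparisons share no array.

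Whole organs were measured, so a lower signal can come from fewer cells of a type or from less RNA per cell, and these cannot be told apart. The fetal and newborn gonads are small, growing organs in which supporting and stromal cells divide and lay down matrix. In the adult testis most of the organ is made of differentiating germ cells, and the adult ovary holds follicles, corpora lutea and a mature stroma. Imprinted genes are read from 1 parental copy only, and many of them promote or restrain growth of the fetus and are known to be shut down after birth in many organs.

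Several markers followed the labelled tissues, and others did so only in part. Zp3, an egg coat protein, gave signals of 1509 and 2126 in neonatal and adult ovary and only the floor value of 75.3 elsewhere, where the floor is the median of all scaled signals, to which lower values were raised. The sperm protein genes Prm1 and Tnp1 gave 9537 and 10201 in adult testis, with floor values on the 5 remaining arrays. The Y-linked gene Eif2s3y was between 757 and 1091 in the testes and at the floor in the ovaries. Sox9, a Sertoli cell factor, was 135 and 418 in fetal and neonatal testis but at the floor in adult testis, and Zp3 was at the floor in fetal ovary. The testis marker Dhh was 299 in adult testis and 647 in adult ovary. The ovary marker Gdf9 was 168 in fetal ovary and 169 in fetal testis, and 2395 and 522 in the adults. Foxl2 and Fst, also ovary markers, were 2266 and 3077 in adult ovary and 217 and 83.0 in adult testis. The adult testis array stood apart. Its log2 signals correlated with those of the other arrays at 0.384 to 0.425, against 0.883 to 0.969 among the other 5, and its 25 late spermatocyte and spermatid genes summed to 184373, against 1897 to 2151 elsewhere. Added hybridization control RNAs had a mean intensity, before scaling, of 745 on that array and 1031 on the neonatal ovary array, against 1462 to 1675 on the others. The signal of the 3' over the 5' probe set of Gapdh, a sign of RNA integrity, reached 3.12 on the neonatal ovary array and 2.36 on that of adult testis, with 1.32 to 1.45 on the remaining arrays. The same ratio for Actb gave another order, from 1.81 in adult testis, the lowest, to 3.78 in fetal ovary, the highest. The part of these differences in the results was not tested, and no second adult testis array was there to replace it.

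The upstream sequences of 3 member genes are shown as examples. Dlk1 had the largest shared decrease, Peg3 was an imprinted gene measured above the floor on every array, and Agt headed the genes that were higher in both adult organs. Each run is the 250 bases before the annotated start in RefSeq's GRCm38.p6 build, read 5′ to 3′ on the gene's strand. The Dlk1 run lies at chr12:109452573-109452822 on the plus strand, the Peg3 run at chr7:6730420-6730669 on the minus strand and the Agt run at chr8:124569707-124569956 on the minus strand. Capitals mark CG, the dinucleotide that carries most DNA methylation, in Dlk1 and Peg3, and the TATA box letters TATAAA in Agt.
Dlk1: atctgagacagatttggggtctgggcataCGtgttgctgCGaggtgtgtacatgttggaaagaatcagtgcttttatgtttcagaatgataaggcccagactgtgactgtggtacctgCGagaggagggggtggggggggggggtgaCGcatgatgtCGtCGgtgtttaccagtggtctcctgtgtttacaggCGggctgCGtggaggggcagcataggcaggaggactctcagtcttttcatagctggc
Peg3: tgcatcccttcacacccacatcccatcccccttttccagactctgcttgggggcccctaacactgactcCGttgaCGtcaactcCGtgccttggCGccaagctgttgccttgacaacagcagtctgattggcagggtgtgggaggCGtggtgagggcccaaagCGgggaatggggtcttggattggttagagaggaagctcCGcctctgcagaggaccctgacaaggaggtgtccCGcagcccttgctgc
Agt: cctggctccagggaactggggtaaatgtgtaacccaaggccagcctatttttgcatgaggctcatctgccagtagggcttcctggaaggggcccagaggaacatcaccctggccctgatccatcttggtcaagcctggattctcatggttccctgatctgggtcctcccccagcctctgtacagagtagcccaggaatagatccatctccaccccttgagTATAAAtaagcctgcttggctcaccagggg
Dlk1 and Peg3 held 8 CG each, against a median of 14 over the 12252 genes measured on 1 array or more (above its floor) that had such a window. The Agt run held no CG, and its TATAAA began 30 bases before the start. TATAAA on either strand was found in 7.55% of the windows of those 12252 genes. A match is a description of letters and not a site of binding. Windows were found for 72 of the 110 lower and 8 of the 15 higher genes, so a comparison of the sets is void.

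The question was first how far the organs moved together. In ovary 285 genes (1.57%) were higher and 261 (1.43%) lower in the adult, and in testis 1882 (10.3%) were higher and 1869 (10.3%) lower. The 110 shared lower genes made up 42.1% of the ovary list and 5.89% of the testis list, where 10.3% of all genes were lower in testis and 1.43% in ovary. A decrease of 4-fold can be seen only in a gene bright enough before, so the share was also taken over the 7465 genes with an earlier mean of at least 4 times the floor in both organs. Among these, 68.75% of the 160 genes lower in ovary were also lower in testis, against 23.4% of all 7465. The 15 shared higher genes made up 5.26% of the ovary list and 0.797% of the testis list. Of the 15282 genes that rose above the floor on any array, 12.3% were higher in testis, more than the 5.26% of the ovary list. Shared decreases were thus more frequent among the ovary's lower genes than over all eligible genes, while shared increases were not. With scaling to the hybridization controls the testis split became 3561 higher and 531 lower, the shared counts became 39 higher and 70 lower, and the share of the lower ovary list was 56.5% against 7.51% of eligible genes. That scaling moved the median testis change of all genes from -0.25 to 0.72 on the log2 scale, and testis changes below are best read against these medians. Over the 15282 genes the ovary and testis changes had a Pearson correlation of 0.049 across genes, which are not independent replicates.

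**Figure D1:**
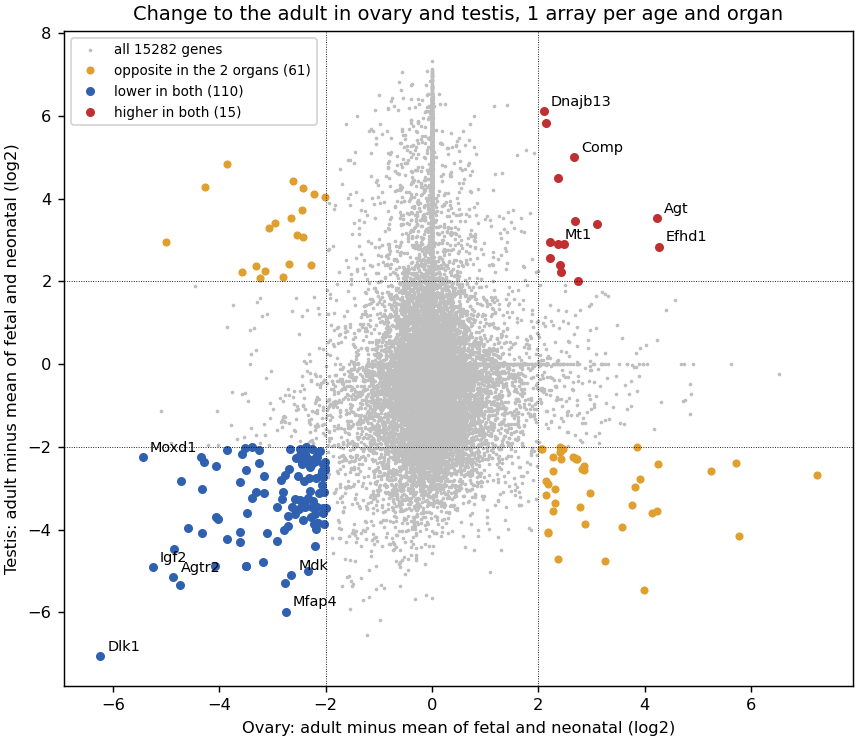
Change of each of 15282 genes to the adult in ovary (horizontal axis, log2) and in testis (vertical axis, log2), each as adult minus the mean of fetal and neonatal, from 1 array per age and organ. Dotted lines mark 4-fold; blue points are the 110 genes lower in both organs, red the 15 higher in both and orange the 61 that changed in opposite directions (41 genes, 0.225%, higher in ovary and lower in testis; 20 genes, 0.11%, the reverse), and Dlk1 lies farthest to the lower left.

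The imprinted growth genes Dlk1 and Igf2 gave the 2 largest shared decreases, by the smaller ratio of the 2 organs. Dlk1, a membrane protein of the Notch ligand type that keeps precursor cells undifferentiated, had a signal of 10118 in fetal, 9828 in neonatal and 131 in adult ovary, and of 9746, 10298 and the floor in testis. Igf2, a fetal growth factor, had 8314, 8286 and 217 in ovary and 7722, 4758 and 202 in testis. All 4 earlier arrays were high and both adult arrays low for each of these genes. That separation largely follows from how members were chosen, since in each organ the adult array lay outside the earlier range in 109 of the 110. Dlk1 was thus 75.8-fold lower in adult ovary and at least 133-fold lower in adult testis, and Igf2 changed by -5.26 in ovary and -4.91 in testis on the log2 scale.

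Mest, a gene of the hydrolase fold family that is expressed from the paternal copy, had 6120, 3106 and 259 in ovary and 5742, 2309 and 124 in testis. Peg3, a zinc finger gene also read from the paternal copy, had 7127, 7250 and 636 in ovary and 6702, 5299 and 201 in testis. The amino acid transporter Slc38a4 had 1165, 851 and 161 in ovary and 1047, 650 and the floor in testis. In each the adult array was below both earlier arrays of its organ, as in nearly all lower members. Mest and Slc38a4 were already lower in the neonate than in the fetus in both organs.

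Of 20 imprinted genes that were above the floor on any array these 5 were lower in both organs, 6 in ovary and 11 in testis. Of all genes 0.605% were lower in both organs, 1.43% in ovary and 10.3% in testis. A change below 0 in both organs was found in 17 of the 20, against 4713 of 15282 genes. Their median change was -1.53 in ovary and -2.84 in testis on the log2 scale, against 0 and -0.25 for all genes. Grb10, a restrainer of growth factor signalling, fell just short, with a 3.96-fold lower signal in adult ovary and 10.9-fold in testis. Cdkn1c, a brake on the cell cycle, was lower in adult ovary alone, with 6153, 3801 and 140 in ovary and 4262, 948 and 911 in testis. In testis most of the Cdkn1c difference thus lay between fetus and neonate. The long RNA Meg3, which shares a domain with Dlk1 and is read from the maternal copy, had 11492, 10511 and 3552 in ovary and 11574, 10099 and 410 in testis. Of the genes in this domain Rian, another long RNA, changed by -1.43 in ovary and -4.04 in testis. Meg3 and Rian passed the limit in testis only.

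**Figure D2:**
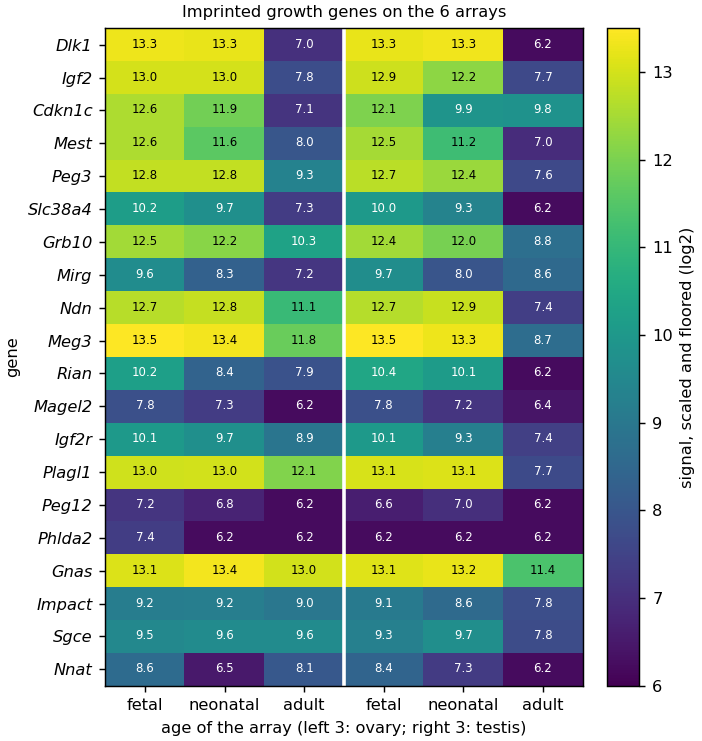
Log2 signal, scaled and floored, of the 20 imprinted growth genes with any signal above the floor on the 6 arrays, with ages in order for ovary (left) and testis (right), 1 array per cell and yellow for high signals. Dlk1, Igf2, Mest, Peg3 and Slc38a4 are bright in the 4 earlier arrays and dark in both adult ones; Cdkn1c is dark in the adult ovary only.

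Growth factors and their receptors followed. Ptn and Mdk code for the paired heparin-binding growth factors pleiotrophin and midkine. The Ptn signal went from 4245 (fetal) and 3665 (neonatal) to 147 (adult) in ovary and was 4009, 2341 and the floor in testis. Mdk had 9143, 7031 and 1278 in ovary and 7749, 7053 and 214 in testis. Mdk was still well above the floor in adult ovary, at a 6.27-fold lower signal, and was 34.5-fold lower in testis. Agtr2, the type 2 receptor of angiotensin, had 3875, 4286 and 140 in ovary and 4195, 1715 and the floor in testis, at least 35.6-fold lower. Its ligand's precursor Agt went the other way in both organs. Igfbp3, which binds insulin-like growth factors, had 3262, 2084 and 288 in ovary and 3050, 1934 and 87.8 in testis. Gdf10, a BMP-like factor, was 20.1-fold lower in ovary and at least 8.11-fold lower in testis.

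Modulators of Wnt and Hedgehog signalling made up the rest of this group of 12. Rspo1, the secreted Wnt enhancer needed for ovary formation, had 1616, 1654 and 241 in ovary and 933, 251 and the floor in testis. Gli3, a transcription factor of the Hedgehog pathway, and Cdon, a coreceptor of Hedgehog ligands, were lower in ovary by 4.69-fold and 4.57-fold, and in testis Gli3 was lower by at least 9.89-fold and Cdon by 15.8-fold. Gpc3, a surface proteoglycan, Sulf1, an enzyme that trims heparan sulfate, and the Wnt inhibitors Apcdd1 and Nkd2 were lower too. Their decreases were between 4.04-fold and 12.2-fold in ovary and between 4.09-fold and at least 9.61-fold in testis. The testis calls of Apcdd1 and Nkd2 rest on 1 probe set each. The brightest other sets of these genes changed by -1.39 and -0.04 in testis and by -2.77 and -1.35 in ovary (log2). Of 26 Hedgehog and Wnt genes above the floor, 3 (Gli3, Cdon and Rspo1) were lower in both organs, 5 in ovary and 17 in testis, with medians of -0.81 and -2.65. Over all genes, too, more were lower in testis (10.3%) than in ovary (1.43%), and 0.605% were lower in both. Dhh, the Hedgehog ligand made by Sertoli cells, had 75.3, 105 and 647 in ovary and 963, 3240 and 299 in testis, opposite changes of 2.86 and -2.56 on the log2 scale.

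The lower genes were sorted by role after their values were seen, and 22 of the 110 were placed under extracellular matrix, with no share of matrix genes over the whole array to set beside that count. Postn, a matrix protein of growing connective tissue, had 4376, 7770 and 357 in ovary and 3277, 1773 and 180 in testis. Eln, the elastin gene, had 1697, 4608 and 268 in ovary and 1653, 3142 and 240 in testis. Eln was therefore highest in the neonate of both organs and lowest in the adult of both. Col1a1, a chain of the main fibrillar collagen, had 4214, 4948 and 675 in ovary and 4952, 3988 and 113 in testis, which is 6.77-fold and 39.3-fold lower. Mfap4, a microfibril-associated protein, had 4185, 3658 and 581 in ovary and 4044, 5596 and the floor in testis, at least 63.2-fold lower. Emilin3, an elastin-associated glycoprotein, was one of few members with more signal in adult testis (151) than in adult ovary (the floor). Col14a1, a fibril-associated collagen, was another, with 237 in adult testis and 118 in adult ovary.

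Not all matrix genes were shared. Of 37 fibrillar collagens and partners above the floor, 7 were lower in both organs (Col1a1, Col5a1, Col14a1, Eln, Mfap4, Loxl1 and Postn). Of the 37, 7 were lower in ovary and 30 in testis, with medians of -1.16 and -3.37. Of all genes 0.605% were lower in both organs, 1.43% in ovary and 10.3% in testis. Col3a1, a collagen of soft tissue, kept 7326 in adult ovary against 11700 and 13728 earlier, and had 605 in adult testis against 11761 and 12772. Tnc, the matrix protein tenascin C, rose in ovary from 296 and 351 to 3092 and was 86.2 in adult testis. Of 15 basement membrane genes 1 (Nid2, the linker protein nidogen 2) was lower in both organs, 1 in ovary and 11 in testis. In these 2 lists every gene that was lower in ovary was also lower in testis, while most that were lower in testis were not lower in ovary.

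Adhesion and axon guidance gave 14 members. Ncam1, the neural cell adhesion molecule, had 2800, 2118 and 121 in ovary and 2403, 677 and the floor in testis. Cd248, a surface protein of fetal stroma and pericytes, had 1972, 2390 and 150 in ovary and 1504, 1319 and the floor in testis. Slit2, a guidance ligand, was 12.2-fold lower in ovary and 16.6-fold lower in testis. These 3 were high on all earlier arrays. The other 11 included the adhesion molecules Alcam, Clmp and Fat4, the ephrins Efna2 and Efnb3, which are ligands of Eph receptors, the receptor Epha3, the surface sialomucin Podxl and the small surface glycoprotein gene Cd24a. They were between 4.02-fold (Efnb3) and 8.63-fold (Alcam) lower in ovary.

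Transcription factors and chromatin proteins gave 13 members, of which 12 were at the floor in adult testis and 2 in adult ovary. Hoxa9, a homeobox gene of the posterior body, had 2102, 1903 and the floor in ovary and 1432, 201 and the floor in testis. Meis1 and Meis2 code for cofactors that bind DNA together with Hox proteins. Meis1 had 2266, 1532 and 311 in ovary and 1552, 546 and the floor in testis, and Meis2 had 3550, 2153 and 424 in ovary and 2496, 515 and the floor in testis. Sox11, a factor of embryonic precursor cells, had 927, 181 and the floor in ovary and 733, 221 and the floor in testis. Hmga2, a chromatin protein of proliferating embryonic tissue, had 2394, 355 and 166 in ovary and 1239, 101 and 77.6 in testis. For Hmga2 most of the difference lay between fetus and neonate in both organs. Nfib, a factor of the nuclear factor I family, had 3305, 2990 and 626 in ovary and 2905, 1980 and the floor in testis, so most of its change came after the neonatal stage. Nr2f1, an orphan nuclear receptor, Bnc1, Hif3a, Mn1, Mxd3, Myrf and Tshz3 completed the group.

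Of 23 Hox genes above the floor, Hoxa9 alone was lower by 4-fold or more in both organs, against 0.605% of all genes. In ovary 6 were lower and in testis 6, where 1.43% and 10.3% of all genes were. Another, dimmer probe set of Hoxa9 changed by only -0.48 in ovary and -0.14 in testis. The median change of the list was -1.11 in ovary and -0.84 in testis. Hoxa5 showed how the earlier mean bears on the call, with 1011, 753 and the floor in ovary and 876, the floor and the floor in testis, a testis change of -1.77. A testis gene that reached the floor by birth could not pass the limit unless its fetal signal was very high.

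Of 18 genes known from fetal and tumour tissue (oncofetal genes), 8 were lower in both organs, against 0.605% of all genes. The medians of the list were -1.88 in ovary and -2.34 in testis. The 8 genes were Afp, Crabp1, Gpc3, Hmga2, Mdk, Ptn, Sox11 and Tubb2b. Crabp1, which binds retinoic acid in the cytoplasm, had 1681, 1385 and the floor in ovary and 655, 198 and the floor in testis. Tubb2b, a beta-tubulin of embryonic tissue, was 4.63-fold lower in ovary and at least 21.2-fold lower in testis. Igf2bp3, an RNA-binding protein of the fetus, went against the list in testis, with 1508, 807 and 82.3 in ovary and 1596, 1027 and 3463 in testis. The list was chosen with earlier results of these data known, so its counts describe and do not test.

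Blood and liver products gave 7 members. Afp, alpha-fetoprotein of the fetal liver and yolk sac, had 1671, 2807 and the floor in ovary and 1175, 2359 and the floor in testis, and Alb, serum albumin, had 539, 1505 and the floor and 225, 522 and the floor. Both were highest in the neonate of each organ. Of all genes 0.605% were lower and 0.0824% higher in both organs. Of the other 12 liver and yolk sac genes above the floor none was called in both. Their summed signal with Afp and Alb was 3410, 7809 and 2443 in fetal, neonatal and adult ovary and 2467, 4400 and 2741 in testis, and the fibrinogen genes Fga, Fgb and Fgg were at the floor on every array except neonatal ovary.

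S100a8 and S100a9, calcium-binding proteins of neutrophils, were at most 115 in adult ovary and at the floor in adult testis, against 674 to 1785 on the earlier arrays. Ngp and Stfa2l1, also genes of the neutrophil lineage, were called with them. These 4 were among 14 neutrophil genes above the floor, against 0.605% of all genes lower in both organs. The neutrophil list and the liver and yolk sac list were chosen after values were seen, so their counts are descriptions. The summed signal of the 14 neutrophil genes was 5561, 4286 and 1247 in ovary and 4471, 5154 and 6453 in testis. Lcn2 gave 5252 of the adult testis sum, and the defining marker Elane was at the floor on all 6 arrays. Hbb-y, an embryonic globin, had 7328 and 5496 in fetal ovary and testis and floor values on the remaining 4 arrays. It was the one lower member whose adult signal did not lie outside the earlier range, because its neonatal signals were at the floor too. The 10 red cell genes summed to 13580 in fetal ovary and 9017 in fetal testis and to at most 1486 on the other arrays. How far blood in the dissected organs enters these results was not tested.

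Surface epithelium gave 4 members, the keratins Krt7, Krt18 and Krt19 of simple epithelia and Upk3b, a gene of mesothelium. Krt19 had 1600, 3556 and 488 in ovary and 946, 190 and the floor in testis. Upk3b had 2226, 4501 and 765 in ovary and 1511, 468 and the floor in testis. In ovary all 4 genes were at least 2-fold higher in the neonate than in the fetus, and in testis all 4 were lower in the neonate. The 15 genes of duct, oviduct and surface epithelium above the floor summed to 11765, 28293 and 4694 in ovary and to 9948, 3353 and 2445 in testis. Ovgp1, an oviduct glycoprotein, was 1961 in neonatal ovary and at the floor in fetal and adult ovary. The part that surface and duct tissue taken along at dissection had in these values was not tested.

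The other 33 lower members were varied. Moxd1, a monooxygenase-like gene, had 2535, 4237 and the floor in ovary, at least 43.5-fold lower, and 1335, 95.4 and the floor in testis. Tk1, the thymidine kinase of dividing cells, had 755, 805 and 188 in ovary and 874, 966 and the floor in testis. Tk1 was the single member among 27 DNA replication genes above the floor, whose medians were -0.83 and -1.29. None of 29 mitosis genes was called in both organs. With 0.605% of all genes lower and 0.0824% higher in both organs, counts this low say little about lists of this size. The median of the mitosis genes was -0.84 in ovary and -0.40 in testis, and it turned to 0.86 in testis with scaling to the hybridization controls. Mki67, a marker of dividing cells, had 3491, 3609 and 1277 in ovary and 3852, 3174 and 606 in testis, so it was below the limit in ovary at a log2 change of -1.48.

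Part of the decrease was in place by birth. In testis 46 of the 110 were at least 2-fold lower in the neonate than in the fetus, against 4.08% of the 15282 genes, and their median step was -0.77. In ovary 10 of 110 were, against 2.94% of genes, and the median step was -0.14. The earlier arrays that define the members also give these steps, so they are a description. Members had to be bright on the earlier arrays, while the 15282 genes include dim ones that could not fall 2-fold. The shares over all genes are therefore not those of equally bright genes. The 10 in ovary were Hbb-y, Ngp, Gpc3, Nr2f1, Col8a2, Sox11, Hif3a, Flrt2, Hmga2 and Col26a1. In the other direction 8 members were at least 2-fold higher in the neonatal ovary, against 4.29% of genes, among them Dpt, a dermal matrix protein, with 1230 in the fetus and 7560 in the neonate. In neonatal testis 4 were, against 2.73% of genes, namely Afp, Alb, Dpt and Stfa2l1. Neonatal testis was below neonatal ovary in 87 of the 110 genes, and fetal testis was below fetal ovary in 83. Adult testis was not above adult ovary in 104, and the 6 exceptions were Emilin3, Ngp, Trpm5, Col14a1, Capn6 and Cacna1g. In adult testis 72 of the 110 were at the floor, against 23 in adult ovary, so that the testis ratios are more often lower bounds. Median ratios were 5.72 in ovary and 8.62 in testis, and 34 of the 110 were above the floor on all 6 arrays.

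**Figure D3:**
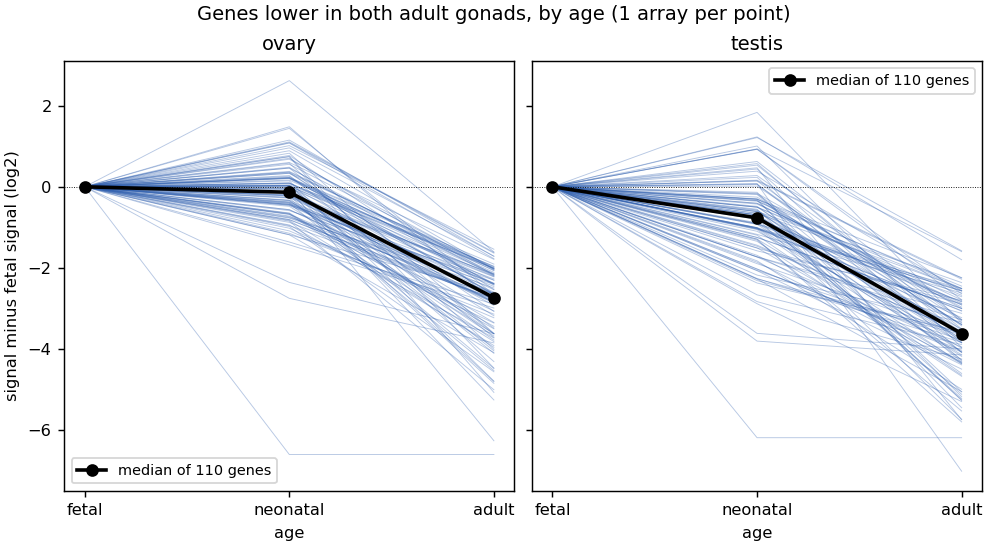
Signal of each of the 110 lower genes relative to its fetal array (log2, vertical axis) by age in ovary (left) and testis (right), 1 array per point, with the median of the genes as a black line. The median step from fetus to neonate is -0.14 in ovary and -0.77 in testis, and the line that drops to the bottom by birth in both panels is Hbb-y.

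The 15 genes higher in both adult organs were few and mostly dim before. Agt, the precursor of angiotensin peptides, was at the floor in fetal and neonatal ovary and 1409 in adult ovary, and had 102, 133 and 1338 in testis. The adult signals of the organs were close, and no earlier array was above 133. Agt was at least 18.7-fold higher in ovary and 11.5-fold higher in testis. Mt1, metallothionein 1, a small metal-binding protein, was the brightest member, with 1485, 2098 and 9092 in ovary and 1000, 926 and 7174 in testis. It was 5.15-fold and 7.45-fold higher. Its neighbour Mt2 had 2338, 3058 and 7541 in ovary and 1671, 1512 and 5405 in testis, which stayed under the limit in both organs.

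Efhd1, a mitochondrial calcium-binding protein, had 86.5, 233 and 2736 in ovary and 450, 1709 and 6258 in testis. It was 19.3-fold and 7.14-fold higher, and in both organs the neonate lay between fetus and adult. Gramd1b, a transporter of cholesterol between membranes, had 123, the floor and 825 in ovary and 380, 254 and 3237 in testis. Actg2, the enteric smooth muscle actin, had 113, 572 and 1639 in ovary and 272, 454 and 3880 in testis. Actg2 was the only one of 14 smooth muscle genes called in both organs, against 0.0824% of all genes higher in both. Lower in testis were 7 of the 14, among them Acta2, Tagln and Mylk, against 10.3% of all genes. Comp, a cartilage matrix protein, had the floor, 88.3 and 517 in ovary and the floor, 81.1 and 2490 in testis. The carriers Slc6a6, which takes up taurine, and Slco3a1, an organic anion transporter, were 5.34-fold and 6.74-fold higher in ovary and 4.70-fold and 4.01-fold higher in testis. Atp10a, a lipid-flipping ATPase, and Fam78a were 5.60-fold and at least 5.32-fold higher in ovary and 7.44-fold and 5.22-fold higher in testis.

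Germ cell genes stood among the higher members. Nlrp14, a gene of germ cells of both sexes, had the floor, 1108 and 1284 in ovary and the floor, the floor and 4286 in testis. In ovary it was therefore already up in the neonate at nearly the adult level, so its place in the list rests on the fetal array. Btg4, needed for the clearance of maternal RNA in the egg, had the floor, 313 and 716 in ovary and the floor, the floor and 579 in testis. Dnajb13 and Dnah2, parts of motile cilia and the sperm tail, were 369 and 388 in adult ovary and 5189 and 1892 in adult testis. Speer4cos was at the floor on all earlier arrays and 350 and 446 in the adults. Of 19 oocyte genes 2 were higher in both organs, 6 in ovary and 2 in testis. All 25 late spermatocyte and spermatid genes were higher in testis and none in ovary. The shares of all genes were 0.0824% higher in both organs, 1.57% in ovary and 10.3% in testis. Both adult signals of Btg4 and Nlrp14 were above all earlier signals of the same organ. This held for all 15 higher members and largely follows from how they were chosen.

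**Figure D4:**
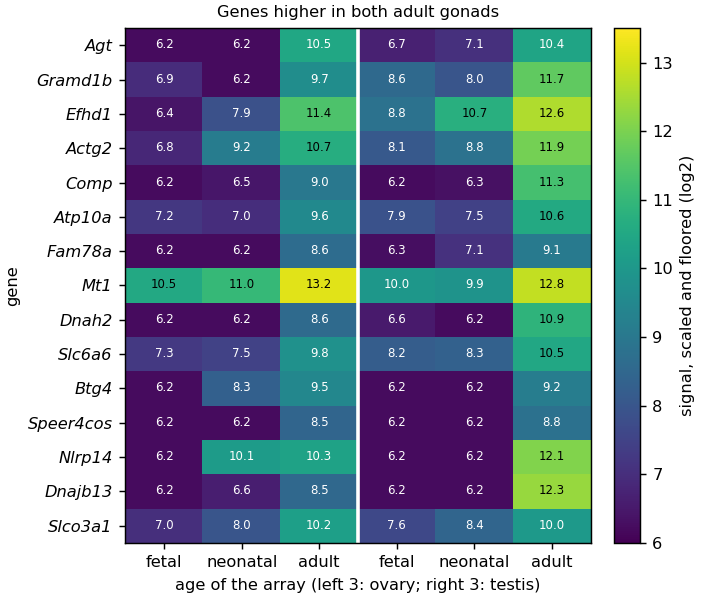
Log2 signal, scaled and floored, of the 15 genes higher in both adult gonads on the 6 arrays, ages in order for ovary (left) and testis (right), 1 array per cell. Mt1 is bright throughout and brightest in the adults; Nlrp14 is at 10.1 in neonatal ovary and 10.3 in adult ovary, and most other genes are near the floor (6.2) in fetus and neonate.

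Steroid synthesis, a main function of the mature gonad, was called mostly in ovary. Of 18 genes of steroid synthesis 12 were higher in adult ovary, where 1.57% of all genes were. In adult testis 1 was higher and 5 were lower, against 10.3% of all genes each way. None was called the same way in both organs, and the medians were 2.78 and -1.13. Over all genes 0.0824% were higher and 0.605% lower in both organs. A lack of shared calls therefore says little about a list of this size. Antigen presentation had 9 of 15 genes above 0 in both organs, against 1819 of 15282 genes, and medians of 1.35 and 0.24, and 5 were higher in ovary and none in testis. Its testis median turned to -0.27 against the neonatal array alone. H2-K1, a class I molecule, had 2975, 2442 and 6013 in ovary and 770, 959 and 1592 in testis. Cd74, the class II invariant chain, had 197, 408 and 3394 in ovary and 169, 241 and 310 in testis. The 17 macrophage genes above the floor summed to 8125, 10402 and 18676 in ovary and 8333, 6902 and 10081 in testis, and their part in the antigen presentation values was not tested.

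**Figure D5:**
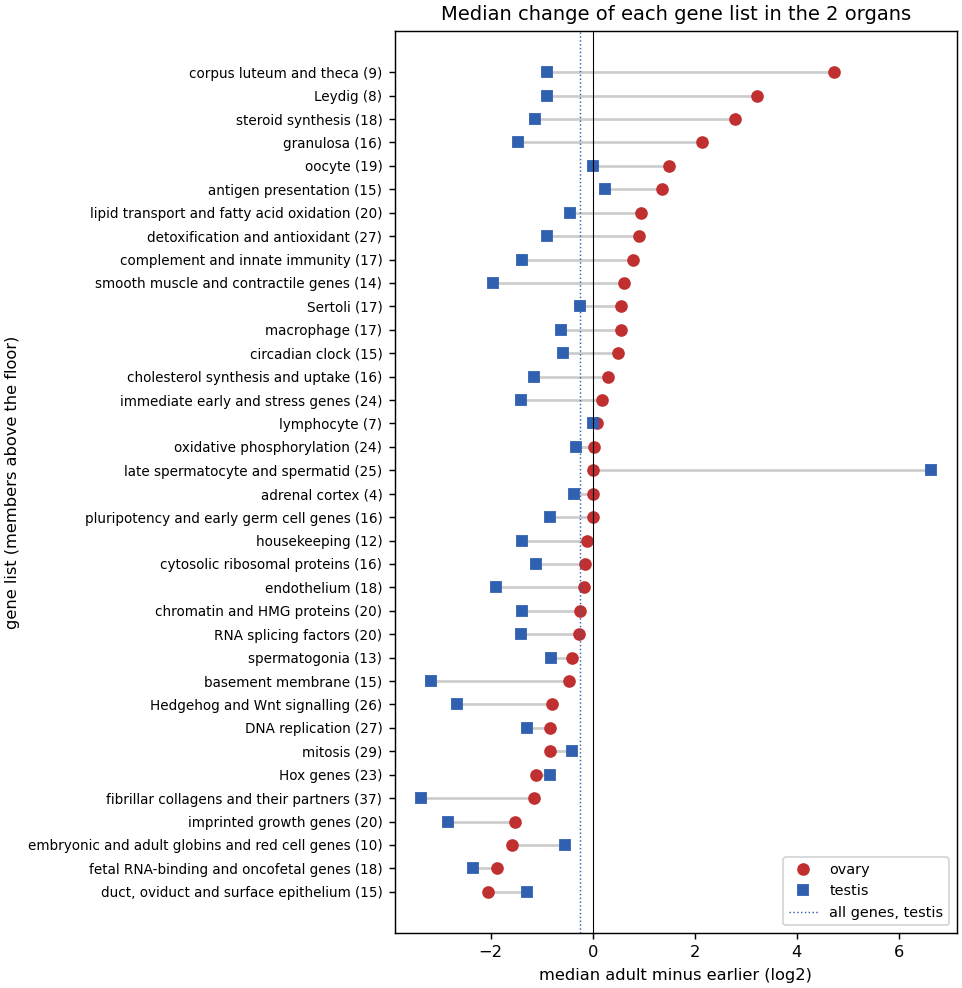
Median change to the adult (log2, horizontal axis) of each gene list in ovary (red circles) and testis (blue squares), with the number of members above the floor in brackets; no error is drawn because each age and organ has 1 array. The solid line is 0, the median of all genes in ovary, and the dotted line at -0.25 is their median in testis. With this scaling the imprinted, oncofetal and collagen lists lie left of both lines in both organs. Steroid synthesis lies on opposite sides with this scaling, and the place of the testis medians depends on it.

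A single fit over all arrays was possible only with organs and ages in the place of replicates, which they are not. In it limma compared adult with earlier arrays with organ as a block, over 15282 genes and with 3 residual degrees of freedom, on the same signals that chose the members. After Benjamini-Hochberg adjustment 1 gene passed 0.05 (0.00654%), Dlk1, at a log2 change of -6.65 with a standard error of 0.26 and an adjusted p of 0.0201. Igf2 had an adjusted p of 0.054 in limma, Cd248 and Ptn had 0.0734, and Agtr2 had 0.17. At an unadjusted p under 0.05 limma counted 1750 genes (11.5%), 108 of the 110 lower members and all 15 higher ones. The adjusted p in limma ran from 0.0201 to 0.467 among the lower and from 0.181 to 0.321 among the higher members. With 16 added to unfloored signals limma called 2 genes.

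Many genes carry more than 1 probe set on the array, which gives a second reading. For 49 of the 110 lower genes another probe set was above the floor in both organs. Taking the brightest such set, 46 changed in the same direction in both organs, 18 of them by 4-fold or more in both. Alcam, Cd24a and Clmp were among these 18. In Adamts16, Adcyap1r1 and Nes this set went the opposite way in at least 1 organ, and so did dimmer sets of Npnt and Hif3a. The other set of Dlk1 changed by -2.21 in ovary and -1.99 in testis, and that of Igf2, which was dim, by -0.25 and -0.13. Another probe set of Col1a1 changed by -1.90 in ovary and -4.12 in testis, just short of the limit in ovary. Of the higher genes 4 had a second reading, and their brightest other sets changed in the same direction, but only that of Atp10a passed 4-fold in both. For Slco3a1 that set changed by 2.78 in ovary and 1.30 in testis, and a dimmer set changed by 2.53 in ovary and -0.49 in testis. For Gramd1b the other set changed by 4.09 in ovary but 0.76 in testis, and for Slc6a6 by 1.33 and 0.15, so the calls of these 3 genes rest on 1 probe set each. Between probe sets of a gene the spread of 1 log2 change was 0.24 in ovary and 0.56 in testis (robust SD), from causes not tested. In testis 12.5% of such pairs differed by more than 4-fold, the size of the limit itself, against 0.189% in ovary.

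On the X chromosome 8 of 618 genes (1.29%) were lower in both organs, against 0.605% of all genes. They were Agtr2, Tro, Gpc3, Pdzd4, Egfl6, Capn6, Armcx4 and Dock11. In testis 25.1% of X-linked genes were lower, against 10.3% of all genes, and in ovary 3.40%, against 1.43%. No X-linked gene was higher in both, where 0.0824% of all genes were, a share too low to expect many among 618 genes. The limit of 4 itself divides near neighbours. Just inside it on the lower side were Dock11, barely above 4 in its less changed organ, Efnb3 at 4.02 and Nkd2 at 4.04, and just outside were Grb10, Gjc1 and Sema3a at 3.96, 3.93 and 3.91. On the higher side Slco3a1 at 4.01, Dnajb13 at 4.28 and Nlrp14 at 4.45 were inside, and Mapk10 just under the limit, Me3 at 3.86 and H2ac19 at 3.78 were outside.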

How the data were processed

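RNA from 6 mouse gonad samples was labelled with biotin and hybridized to Affymetrix arrays, per the labels' protocols. The deposited table holds 1 linear intensity per probe set and array (45101 probe sets). The submitters' processing notes list GCOS (version 1); the sources used here do not state the background correction, probe summary or scaling. Each array was multiplied by a factor (0.913 to 1.26) to a common 2% trimmed mean and raised to a floor of 75.3. A ratio is a lower bound where only its lower side had an array at the floor. With arrays at the floor on both sides, as for Hbb-y, it is not a bound. The platform annotation gave 34945 probe sets 1 symbol, 932 several and 9211 none; only the first were used. A gene is its probe set with the highest mean (18193 genes).

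A call is a ratio of 4 or more. Each organ's adult array was set against the log2 mean of its 2 earlier arrays. With 1 array per group only limma 3.58.1 (R 4.3.3), with organ as a block, gave p-values; Python 3.11.15 did the rest. The steps were tested on simulated data. Members and 36 lists (718 genes, 641 matched) were chosen with earlier results of these data known; 6 more lists and the grouping of lower members by role were chosen after values were seen. Named were, per direction, the 12 with the largest smaller ratio above the floor on all arrays, 12 others, called list members, the 5 strongest opposite genes each way and 3 genes on each side of the limit; others were named after their values were seen. Alternatives were other scalings, floors, references, ratios, probe set rules and an added 16.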

Additional observations from a re-analysis of the deposited data

Results flagged for a closer look

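Genes with large opposite changes were singled out because the organs moved apart, and the difference between organs was not tested, since each has 1 adult array. In all 41 genes (0.225% of 18193) were higher in adult ovary and lower in adult testis by 4-fold or more, and 20 genes (0.11%) were the reverse.

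The first kind was led by genes of the steroid-producing and supporting cells. Hsd17b1, which makes estradiol in follicles, changed by 5.78 in ovary and -4.16 in testis on the log2 scale. Amh, the hormone of granulosa and immature Sertoli cells, changed by 3.99 and -5.47. Inhba, the activin subunit, changed by 4.13 and -3.60. Prss35 changed by 3.57 and -3.93, and the kinase gene Pak3 by 4.22 and -3.56.

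The reverse kind was led by meiotic chromosome genes. The synaptonemal complex genes changed by -5.01 in ovary and 2.95 in testis for Sycp3, by -2.95 and 3.40 for Sycp1 and by -3.86 and 4.83 for Syce1. The meiotic cohesin genes changed by -4.26 and 4.28 for Smc1b and by -3.07 and 3.29 for Stag3.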

How the results depend on the processing

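No paired analysis was possible because each group has 1 array, in the sense of replicate numbers used as a block; the pairing by organ is part of every ratio and of limma. No replicate could be left out either. The counts below are of genes higher and lower in both organs, where 15 and 110 were found, and then of the organs' own lists. Scaling to the 9 hybridization controls gave 39 and 70, with 3561 higher and 531 lower in testis. A floor at the 25th percentile gave 36 and 196, with 487 lower in ovary, and one at the 75th gave 2 and 30, with 99 higher and 69 lower in ovary and 1150 and 673 in testis. With 16 added in place of a floor there were 30 genes higher in both, 405 lower in ovary, and 2 genes in limma. The mean of all probe sets gave 69 lower in both, 172 in ovary and 1029 in testis. The fetal reference alone gave 28 higher in both, and the nearer earlier array gave 8 and 54, with 165 lower in ovary. A ratio of 2 gave 126 and 572, with 1006 higher and 1087 lower in ovary and 3139 and 4753 in testis. A ratio of 8 gave 2 and 22, with 87 and 79 in ovary and 560 lower in testis. A pair of checks was chosen after seeing the data. The brightest other measured probe set was called too in 18 lower genes, and a testis change taken relative to its median gave 18 and 96. Over 12 settings 18 lower genes were called in all, among them Dlk1, Igf2, Mest, Agtr2, Ptn, Mdk, Col1a1, Postn and Mfap4, and 0 of the 15 higher ones were. Of 1824 values of 76 named genes 1638 stayed past 4-fold, 186 did not and 0 turned direction. Of 864 list medians 174 moved by at least the spread of 1 log2 change between probe sets (0.24 in ovary, 0.56 in testis). With the hybridization controls 34 of the 36 testis list medians moved. The Leydig, Sertoli, macrophage, mitosis and ribosomal protein medians were among those that turned from below 0 to above it in testis. The cause of these shifts was not tested. Dim signals limit the ratios, since 72 lower genes were at the floor in adult testis.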

Other observations

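The pathways around 3 of the strongest genes were looked up with lists chosen after the values were seen, so these counts are descriptions. Of 16 genes of the insulin-like growth factor system above the floor, Igf2 and Igfbp3 were lower in both organs, and 9 were lower in testis. Of all genes 0.605% were lower in both organs and 10.3% in testis. Igf1, the postnatal growth factor, went from 3507 (fetal) and 4806 (neonatal) to 1342 (adult) in ovary and was 2917, 5618 and 207 in testis. The receptor gene Igf1r had 777, 611 and 1234 in ovary and 782, 730 and 151 in testis. Igfbp7 reached 9756 in adult ovary, its highest value, and was 1563 in adult testis.

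In the renin-angiotensin system Agt was higher and Agtr2 lower in both adult organs. Ace, the converting enzyme, had 94.2, 125 and 293 in ovary and 113, 358 and 2569 in testis, and passed the limit in testis only. Agtr1a, the type 1 receptor, had 444, 542 and 171 in ovary and 254, 150 and 813 in testis. Mas1, a receptor of an angiotensin fragment, was at the floor on every array except adult testis (454). Of the metal-response genes, Mtf1, the factor that switches on metallothioneins, had 192, 226 and 203 in ovary and 208, 155 and 1028 in testis.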
